A study of Mus musculus with 6 samples.

Results

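Transcription factors that direct T-lineage fate were followed in whole thymus RNA of 10-day-old mice: Bcl11b, Gata3, Zbtb7b, Tox, Satb1, Ets1, Ikzf1, Ikzf3 and Myb. The 9 genes were chosen by name for their roles in T-cell development, out of 19938 genes that a single-symbol annotation names on the array. No rule on their values was used, but earlier results of these data were known. Each was read by 1 probe set, and none of them shared a probe set with another symbol. The RUNX2/MYC group comprised 3 arrays of CD2-Myc/CD2-Runx2 mice on the C57BL6/CBA background, which carry both transgenes, and the wild-type (WT) group comprised 3 arrays of C57/CBA mice without them. Every mouse was 10 days old, the titles number each array as a biological replicate, and Affymetrix MoGene 1.0 arrays were used. The CD2 control region drives both transgenes in lymphoid cells, mice with 1 transgene were not analysed here, and the study describes a polyclonal expansion of premalignant cells in the transgenic thymus at this age. Whole thymus also holds epithelium, myeloid cells and other stroma, so each value averages over all of them, and fewer cells of a type cannot be told apart from less RNA per cell.

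The named genes act in sequence along the thymocyte path. Progenitors that receive Notch signals in the thymus switch on TCF1 and GATA3 and then BCL11B, the zinc-finger factor that closes off other lineages. MYB and the Ikaros proteins act in progenitors and again in CD4+CD8+ double-positive cells, where ETS1 and the chromatin organizer SATB1 also act. During positive selection TOX, GATA3, MYB and ZBTB7B (ThPOK) favour the CD4 lineage, and RUNX3 the CD8 lineage. RUNX proteins bind many of the enhancers and silencers through which these genes are controlled, which makes the set of interest in a thymus with a RUNX2 transgene.

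Values are log2 signals, so a difference of 1 is a 2-fold difference in signal, and a level is not compared between genes. A call, higher or lower, needed an adjusted p under 0.05 from limma, a moderated linear model, adjusted by Benjamini-Hochberg across the 35556 probe sets. Runx2 marked the groups as labelled, at 11.82 ± 0.12 (SD) against 7.94 ± 0.0026, a difference of 3.89 on the log2 scale (limma adjusted p = 4.3e-05, on a probe set named through a supplementary list of the study). Mouse Myc, whose probe set need not read the transgene, differed by -0.48 on the log2 scale (limma adjusted p = 0.119). RUNX2/MYC replicate 2 stood apart in some genes of fat, with a log2 signal of 10.57 for Car3 against 6.75 to 7.85 on the other arrays. RUNX2/MYC replicate 1 stood apart in some genes of red cells. It had 10.91 for the haem synthesis gene Alas2 against 8.55 to 9.98, and 9.03 for the anion exchanger gene Slc4a1 against 7.41 to 8.08. It hardly did so in Klf1 (6.66 against 6.28 to 6.61), and in Epor it was the lowest of its group (8.96 against 9.03 and 9.09). Values without each array are given where they matter.

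None of the 9 factors was called higher or lower in RUNX2/MYC thymus, where 1.8% of all probe sets were called, 1.68% higher and 0.127% lower. With the q values of the study's own test, an analysis of variance, the count was also 0 in both directions, against 3.41% higher and 0.695% lower, and 3 of 9 (Tox, Satb1 and Zbtb7b) were lower at its unadjusted p under 0.05, as were 5.97% of all probe sets. Without RUNX2/MYC replicate 1, which raised the calls over all probe sets to 2.02% lower, 0 of the 9 were called. By limma's unadjusted p under 0.05, Tox and Satb1 (2 of 9) were lower and 0 higher, where 9.27% of all probe sets were lower and 12% higher. The log2 fold changes of the 9 ran from -0.51 for Tox to 0.041 for Ikzf3, with a median of -0.20 against -0.051 over all probe sets and 0.065 over those brighter than the median. In 8 of 9 the value was negative, as in 57.7% of all probe sets and 41.1% of those brighter than the median, the class that holds all 9, although that of Ikzf1 turned positive under median centring. The RUNX2/MYC arrays lay wholly below the WT arrays for 5 of the 9, where 10.1% of all probe sets did so, and wholly above for 0, where 14.3% did. With each array centred on its median this held for Tox alone, where 6.6% of all probe sets lay wholly below.

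**Figure D1:**
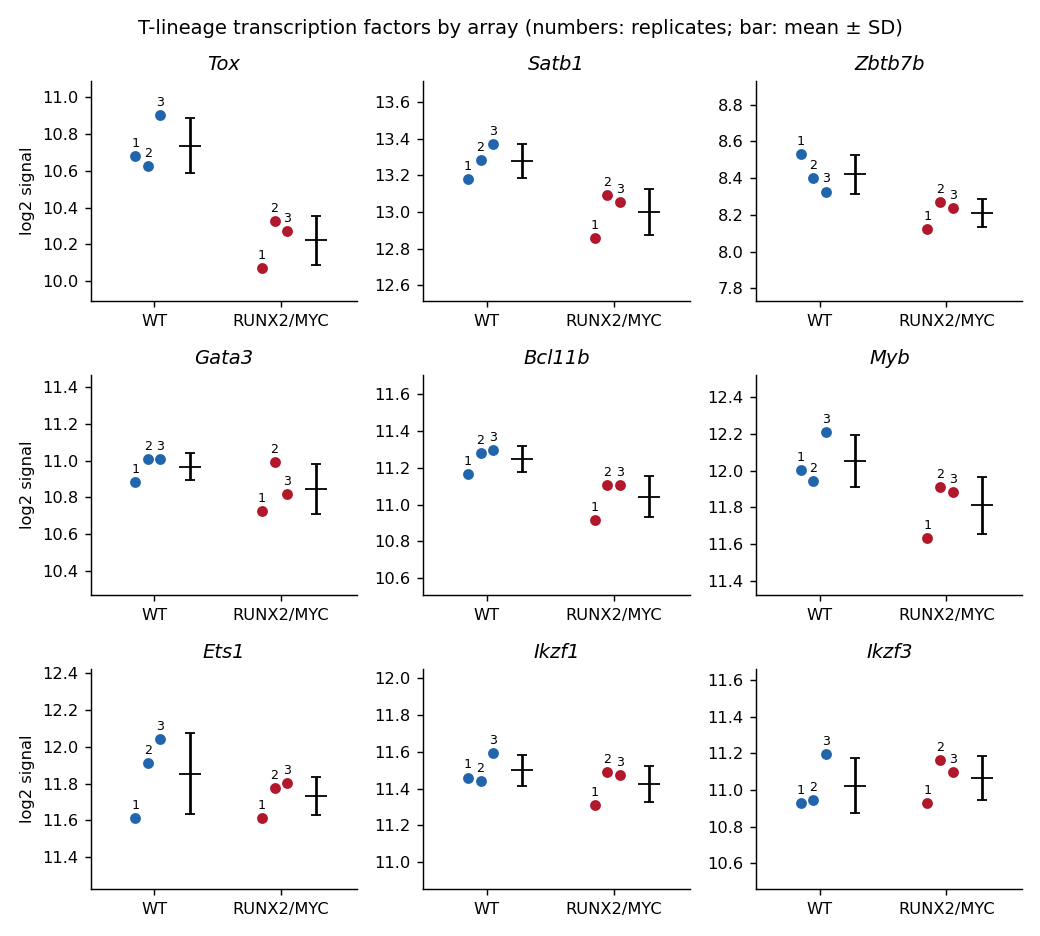
Log2 signal of each transcription factor on the 3 WT arrays (blue) and the 3 RUNX2/MYC arrays (red), with replicate numbers beside the points and the mean ± SD as a black bar. Every panel spans 1.2 log2 units. Tox shows the widest gap between the groups (0.30), Satb1, Zbtb7b, Bcl11b and Myb narrow gaps, and Gata3, Ets1, Ikzf1 and Ikzf3 overlap.

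Tox, an HMG-box factor required for CD4 lineage development, was the member nearest to the threshold. Its log2 signal was 10.07, 10.33 and 10.27 on RUNX2/MYC replicates 1 to 3 and 10.68, 10.63 and 10.91 on WT replicates 1 to 3. All RUNX2/MYC arrays thus lay below all WT arrays, with a gap of 0.30 between the nearest. The mean was 10.22 ± 0.13 (SD, n = 3) in RUNX2/MYC and 10.74 ± 0.15 (SD, n = 3) in WT. The log2 fold change was -0.51 (95% interval -0.79 to -0.24, standard error 0.12, adjusted p = 0.0811 from limma), or a signal at 70.0% of WT, and its p ranked 1303 among the probe sets. It passed the threshold in 6 of 18 alternative settings, and its adjusted p ran from 0.00381 to 0.241 over them. The log2 fold change stayed negative (-0.66 to -0.38). Settings that alter only the test or the probe sets fitted leave it at its main value by design. Leaving out any single array gave -0.57 to -0.43 and no call.

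Satb1, which folds chromatin in thymocytes and acts on Rag and CD4 and CD8 lineage genes, had log2 signals of 12.86, 13.09 and 13.06 on the RUNX2/MYC arrays and 13.18, 13.28 and 13.37 on the WT arrays. The groups did not overlap, but RUNX2/MYC replicate 2 and WT replicate 1 were only 0.089 apart. The log2 fold change was -0.28 (95% interval -0.52 to -0.035, adjusted p = 0.201 from limma). Within each array the ratio of Tox to Satb1 differed by -0.24 between the groups, from -0.25 to -0.22 on RUNX2/MYC arrays and -0.12 to 0.076 on WT arrays around the WT mean. This ratio was chosen after its values were seen and has no test.

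Zbtb7b encodes ThPOK, the zinc-finger factor that fixes the CD4 fate. It gave 8.12, 8.27 and 8.24 on the RUNX2/MYC arrays and 8.53, 8.40 and 8.33 on the WT arrays, as log2 signals. The groups were 0.058 apart at their nearest arrays, and WT replicate 3 was the lowest of its group. The log2 fold change was -0.21 (95% interval -0.43 to 0.014, adjusted p = 0.253 from limma). Runx3, the factor of the opposing CD8 fate, had log2 signals of 9.53 to 9.73 in RUNX2/MYC and 9.03 to 9.28 in WT, which differed by 0.51 (limma adjusted p = 0.0661, standard error 0.10). The ratio of Zbtb7b to Runx3 within an array, which a shift of the whole array leaves as it is, was lower in RUNX2/MYC by 0.72 on the log2 scale. Scalings that depend on signal can move such a ratio, and here gave -0.65 with quantile normalization and -0.63 with cyclic loess, still with no overlap between the groups. Around the WT mean it ran from -0.89 to -0.54 on RUNX2/MYC arrays and from -0.24 to 0.15 on WT arrays (exact permutation test, two-sided, p = 0.1, adjusted p = 0.15 over 3 ratios). A p of 0.1 is the smallest that 3 against 3 arrays allow.

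Gata3, needed for T-cell specification and again for the CD4 lineage, overlapped between the groups, at 10.72 to 10.99 in RUNX2/MYC and 10.88 to 11.01 in WT on the log2 scale. Its log2 fold change was -0.12 (95% interval -0.36 to 0.12, adjusted p = 0.469 from limma), and it was -0.062 without RUNX2/MYC replicate 1 and -0.20 without RUNX2/MYC replicate 2. A p above the threshold does not show that Gata3 was equal in both groups. The within-array ratio of Gata3 to Zbtb7b differed by 0.087 (exact permutation test, two-sided, p = 0.6, adjusted p = 0.6 over 3 ratios), with 0.033 to 0.18 on RUNX2/MYC arrays inside or near the WT range of -0.20 to 0.13, and it turned to -0.011 without WT replicate 1 and to -0.0077 with cyclic loess.

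Bcl11b, the commitment factor, had log2 signals of 10.92, 11.11 and 11.10 on the RUNX2/MYC arrays and 11.17, 11.28 and 11.30 on the WT arrays. The groups were separated by 0.056, between RUNX2/MYC replicate 2 and WT replicate 1. The log2 fold change was -0.20 (95% interval -0.43 to 0.022, standard error 0.095, adjusted p = 0.263 from limma). Myb, which supports progenitors and the survival of double-positive cells, had log2 signals of 11.63, 11.91 and 11.89 on the RUNX2/MYC arrays and 12.01, 11.94 and 12.21 on the WT arrays. Here RUNX2/MYC replicate 2 and WT replicate 2 were 0.030 apart, the narrowest gap of the 5 factors without overlap. The log2 fold change of Myb was -0.24 (95% interval -0.52 to 0.038, adjusted p = 0.278).

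Ets1, the founding member of its family and a factor of thymocyte survival, spread more among WT arrays than any other member. Its log2 signal was 11.61, 11.91 and 12.04 on WT replicates 1 to 3, a range of 0.43, and 11.61 to 11.80 in RUNX2/MYC. The groups overlapped, and the log2 fold change was -0.12 (95% interval -0.43 to 0.19, adjusted p = 0.565 from limma). It ran from -0.25 to -0.029 over the settings, and both ends came from leaving out 1 array.

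Ikzf1 (Ikaros) and Ikzf3 (Aiolos), zinc-finger proteins that dimerize with each other, had the values nearest to 0. Ikzf1 had a log2 fold change of -0.073 (95% interval -0.30 to 0.15, adjusted p = 0.638 from limma) and Ikzf3 of 0.041 (95% interval -0.23 to 0.31, adjusted p = 0.828). The log2 signal of Ikzf1 ran from 11.31 to 11.49 in RUNX2/MYC and from 11.44 to 11.60 in WT, and that of Ikzf3 from 10.93 to 11.16 and from 10.93 to 11.20. Neither direction was stable, since Ikzf1 turned positive in 2 and Ikzf3 negative in 5 of 18 settings. Not all 18 could turn a sign, since some alter only the test or the probe sets fitted. The ratio of Ikzf3 to Ikzf1 within an array differed by 0.11, from 0.094 to 0.15 on RUNX2/MYC arrays and from -0.058 to 0.075 on WT arrays around the WT mean. These ranges did not overlap (exact permutation test, two-sided, p = 0.1, the smallest possible, adjusted p = 0.15 over 3 ratios).

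The 9 factors took similar positions among the RUNX2/MYC arrays, and less so among the WT arrays, where replicate 1 was the lowest for 5 of 9. RUNX2/MYC replicate 1 was the lowest of its group for 9 of 9, as it was for 36.9% of all probe sets and for 53.9% of those brighter than the median. It was the highest of its group for 45.5% of all probe sets and 28.7% of the brighter ones, so its position differed with signal level. RUNX2/MYC replicate 2 was the highest for 8 of 9, Ets1 being the exception, and WT replicate 3 the highest of its group for 7 of 9, against 43.2% and 48.3% of the brighter probe sets. The same array, RUNX2/MYC replicate 1, had the highest mean log2 signal of the erythroid markers (8.89), and the part of red cells in the values of the 9 factors was not tested. Within RUNX2/MYC the range of a factor over the arrays was 0.14 (Zbtb7b) to 0.28 (Myb), and within WT 0.13 (Gata3 and Bcl11b) to 0.43 (Ets1). The difference between group means was 1.85 times the wider of both ranges for Tox, 1.19 times for Satb1, 1.06 times for Bcl11b and 1.02 times for Zbtb7b, and it was narrower than that range for the other 5.

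**Figure D2:**
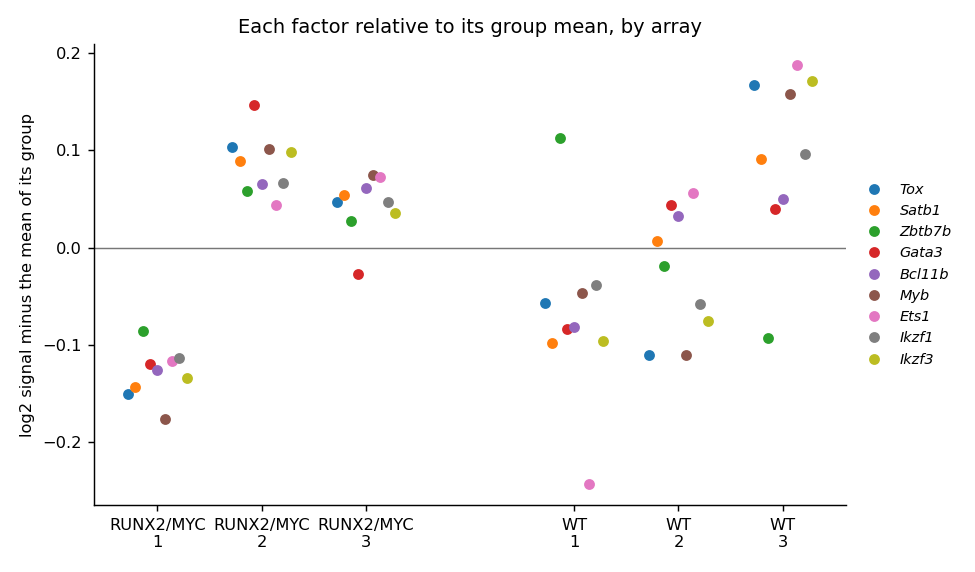
Log2 signal of each factor on each array minus the mean of its group, with 1 colour per gene. All 9 points of RUNX2/MYC replicate 1 lie below 0 (-0.18 to -0.086), 7 of the 9 points of WT replicate 3 are the highest of their group, and Zbtb7b runs the other way among WT arrays.

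The annotation names 14 measured paralogs of the 9 factors, genes of the same families, and 2 of them were called higher. Tox2 had log2 signals of 8.48, 8.92 and 8.77 on the RUNX2/MYC arrays and 7.90, 7.71 and 7.63 on the WT arrays. It rose by 0.98 (standard error 0.14, adjusted p = 0.0271 from limma). Helios, encoded by Ikzf2 and known from regulatory T cells and from thymocytes that meet strong self antigen, had log2 signals of 10.40, 10.36 and 10.62 in RUNX2/MYC and 9.64, 9.64 and 9.84 in WT. It rose by 0.76 (standard error 0.11, adjusted p = 0.0283). In both genes every RUNX2/MYC array lay above every WT array, opposite to the direction of Tox and unlike the overlap of Ikzf1 and Ikzf3.

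Neither call is independent of single arrays, which holds for nearly every call in these data. Of all probe sets 596 were called higher and 45 lower on all 6 arrays. Without RUNX2/MYC replicate 2 or 3, or WT replicate 1 or 2, the counts were 3 or 4 higher and 0 lower. The call of Tox2 was lost when RUNX2/MYC replicate 2 or 3, or any 1 WT array, was left out (adjusted p = 0.0503 to 0.154), and that of Ikzf2 when RUNX2/MYC replicate 2 or 3, or WT replicate 1 or 2, was left out (adjusted p = 0.111 to 0.17), while the log2 fold changes stayed between 0.88 and 1.10 and between 0.68 and 0.82. The call of Ikzf2 also ended under 75th percentile centring (adjusted p = 0.0538), and both ended with the study's own test under Benjamini-Hochberg adjustment (adjusted p = 0.103 for Tox2 and 0.0901 for Ikzf2). Within arrays Tox2 differed from Tox by 1.49 on the log2 scale, with an SD of 0.096 over the RUNX2/MYC arrays, and the WT arrays ran from -0.28 to 0.21 around their mean. Ikzf2 differed from Ikzf1 by 0.83 (0.66 to 0.95 against -0.027 to 0.037) and from Ikzf3 by 0.72. These 3 ratios were chosen after their values were seen and have no test.

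The other 12 paralogs did not pass. On the log2 scale Ets2 differed by -0.51 (adjusted p = 0.0958), Tox3 by -0.39 (adjusted p = 0.174) and Bcl11a, a BCL11 factor of B cells and progenitors, by -0.34 (adjusted p = 0.0979). Gata1 and Gata2, factors of blood progenitors and red cells, were at -0.25 and -0.22, Ikzf4 at -0.11 and Zbtb7c at -0.14. Mybl2, a cell cycle relative of Myb, was at 0.21 (adjusted p = 0.219), Zbtb7a at 0.23, Tox4 at 0.20, Mybl1 at 0.11 and Ikzf5 at 0.094. With the q values of the methods 1 paralog was lower, and the median of the 14 was -0.0097.

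**Figure D3:**
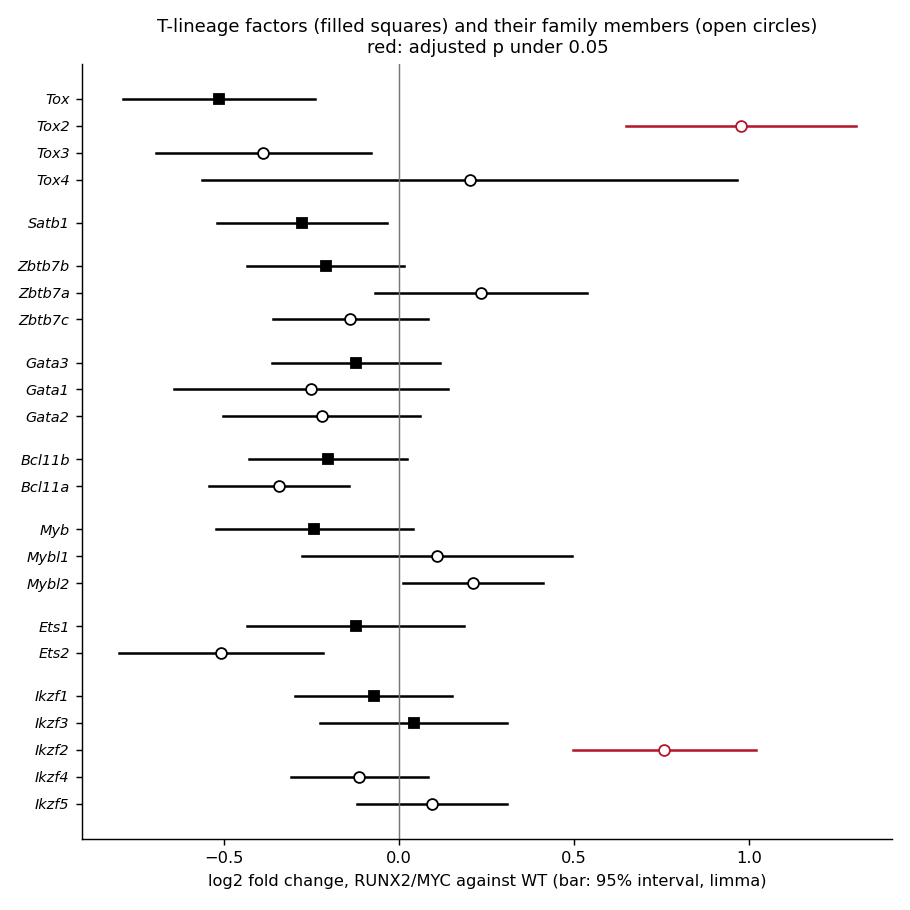
Log2 fold change, RUNX2/MYC against WT, with its 95% interval from limma, for the 9 factors (filled squares) and 14 paralogs (open circles), grouped by family. Only Tox2 (0.98) and Ikzf2 (0.76) are red, that is, past an adjusted p of 0.05. Tox and the paralog Ets2, both at -0.51, lie farthest to the left.

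Among 23 measured regulators of T-cell commitment and lineage choice other than the 9, 1 was higher and 1 lower. Id3, an inhibitor of E proteins, rose by 0.97 (standard error 0.11, adjusted p = 0.0168 from limma), and Runx1 fell by 1.02 on the log2 scale (standard error 0.14, adjusted p = 0.0234). Klf2, a factor of mature thymocytes that leave the organ, had a value of 0.53 (adjusted p = 0.0502), and the median was 5e-04. The calls made by limma in these and the later lists, and those of Tox2 and Ikzf2, were all lost on leaving out any 1 of 4 arrays, namely replicates 2 and 3 of RUNX2/MYC and replicates 1 and 2 of WT. For Runx1 the adjusted p then ran from 0.0773 to 0.133 and the log2 fold change over all leave-outs from -1.12 to -0.92, and for Id3 from 0.0773 to 0.119 and from 0.90 to 1.05. Of 21 genes listed for progenitors and other lineages, not all of them silent in T cells, 2 were higher and 0 lower. The higher ones were Cd7 (1.19, adjusted p = 0.0157) and the interleukin-2 receptor gene Il2rb (1.18, adjusted p = 0.014), Gfi1b had a value of -0.42 (adjusted p = 0.163), and the median was -0.021. 

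Ikaros and BCL11 proteins recruit the NuRD and SIN3 corepressors. Of 17 subunit genes limma called 0 in either direction (unadjusted, 3 higher and 0 lower; with the q values, 2 higher). The value was positive for 13 of 17, with a median of 0.047 that turned negative with quantile normalization, 75th percentile centring and cyclic loess (-0.066). Mta1 had the value farthest from 0 (0.40, adjusted p = 0.0627), followed by Gatad2a (0.29) and Mbd3 (0.25). Of 15 ETS family genes other than Ets1 0 were called in either direction (1 higher and 2 lower unadjusted, 0 with q values), and the median was 0.018. After Ets2 the largest values were those of Etv5 (-0.41, adjusted p = 0.144) and Spib (0.34, adjusted p = 0.176). Of 18 thymocyte genes that lie downstream of these factors in textbook accounts 0 were called (3 higher and 5 lower unadjusted, 0 with q values). Cd4 differed by -0.74 (adjusted p = 0.091), Rag1 by -0.62 (adjusted p = 0.0963) and Rag2 by -0.55 (adjusted p = 0.211), with no overlap between the groups, and the median was -0.077.

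**Figure D4:**
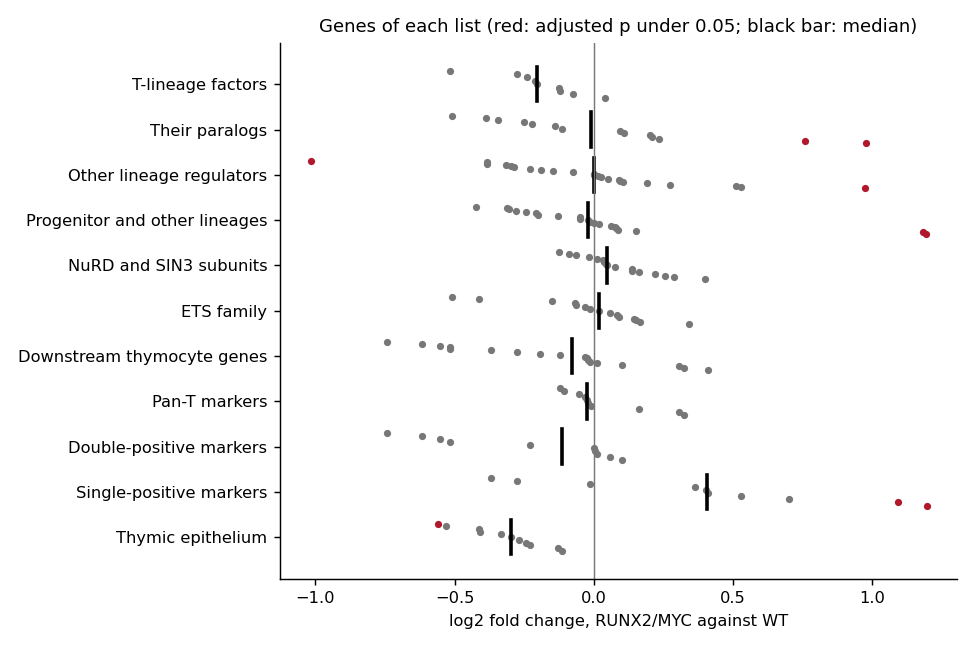
Differences in log2 signal between RUNX2/MYC and WT for the genes of 11 lists. Each point is 1 gene, drawn in red if limma gave an adjusted p under 0.05, and black bars mark medians. No gene of the 9 T-lineage factors is red, and their median (-0.20) lies to the left of those of their paralogs (-0.0097) and of other lineage regulators (5e-04).

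Markers of the cells in the organ are given beside these values. Of 10 measured pan-T genes, 0 were called by limma (2 higher unadjusted, 0 with q values), their mean log2 signal was 11.37 to 11.56 on RUNX2/MYC arrays and 11.35 to 11.45 on WT arrays, and the median log2 fold change was -0.023. Of 10 double-positive genes, 0 were called (4 lower unadjusted, 0 with q values), with mean log2 signals of 11.17 to 11.55 against 11.56 to 11.76. Among 11 genes of immature cells before the double-positive stage, Il2ra fell by 0.79 (adjusted p = 0.0328, up to 0.168 without 1 array), with 8.97 to 9.25 against 9.26 to 9.41. Of 10 genes of mature single-positive cells Ms4a6b (1.20) and Itgb7 (1.09) rose, with 8.97 to 9.15 against 8.56 to 8.83. The value was positive in 7 of the 10 and negative in 3. Bcl2 (-0.37, adjusted p = 0.238 from limma) was lower without overlap between the groups. The mean of the 9 factors, 10.91 to 11.13 in RUNX2/MYC and 11.16 to 11.33 in WT, was lower without overlap, as was the mean of the immature genes (9 of 11 negative) and of the double-positive genes (5 of 10 negative), while the pan-T means overlapped and the single-positive means were higher. The array medians (7.31 to 7.49) differed by more than the gap between 11.13 and 11.16, so the scaling can alter this separation of the 9 factors. The gaps of the immature and double-positive means were narrower still. Taken singly, 5 of the 9 factors lay wholly below WT as deposited and 1 with median centring. With quantile normalization, 75th percentile centring or cyclic loess 7 did. What part the mix of stages has in the values of the 9 factors was not tested.

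Markers of cells other than thymocytes follow. All 11 genes of thymic epithelium had a negative value (median -0.30). By limma's unadjusted p 7 were lower, where 9.27% of all probe sets were. With q values Cldn4, Dsc3, Foxn1 and Krt8 were lower, where 0.695% of all probe sets were. Dsc3 fell by 0.56 (adjusted p = 0.0428 from limma, a call lost without any 1 of the 6 arrays, at 0.051 to 0.222). The mean log2 signal of the 11 was 9.33 to 9.46 on RUNX2/MYC and 9.67 to 9.78 on WT arrays. The epithelial and myeloid means, too, were lower in RUNX2/MYC without overlap, and so, by a narrow gap, were those of NK and innate lymphoid cells. Of 9 myeloid genes 0 were called (3 lower unadjusted, 1 lower with q values, mean 8.18 to 8.22 against 8.29 to 8.42). Of 7 B-cell genes 0 were called (1 higher unadjusted, 1 higher with q values, mean 7.38 to 7.58 against 7.52 to 7.62). Of 8 genes of NK and innate lymphoid cells 0 were called (1 higher and 3 lower unadjusted, 0 with q values), with mean log2 signals of 7.21 to 7.31 against 7.32 to 7.36. Of 7 genes of fibroblasts and endothelium 0 were called (1 lower unadjusted, 0 with q values, mean 8.24 to 8.51 against 8.44 to 8.53). Of 4 erythroid genes Epor rose by 1.39 (adjusted p = 0.00971 from limma), and Klf1 had a value of -0.087 (adjusted p = 0.672). The mean log2 signal of the 4 was 8.18 to 8.89 against 7.61 to 7.81. Of 9 adipocyte genes 0 were called by limma, at an unadjusted p or with q values, and their mean reached 8.23 on RUNX2/MYC replicate 2. No marker is at 0, since these signals have no true zero. Their part in the values of the 9 factors was not tested.

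By the mean absolute difference of log2 signals over the 6 arrays, each gene centred on its own mean, the genes most like Tox among 19937 others were Papss2 (0.015), Alcam (0.022), Alox12e (0.034), Parp12 (0.041) and Tmem176b (0.044), with log2 fold changes of -0.54 to -0.45. Those most like Satb1 were Snx9 (0.019), Stat3 (0.019), St14 (0.022), Usp2 (0.026) and Ccl25 (0.027), with -0.30 to -0.26, and none of these 10 genes passed the threshold. Since the genes were chosen for like signals on the same 6 arrays, like fold changes and p-values follow from the choice.

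Promoter sequence was searched for the core motifs of both transgene products in the 250 bases before each start site that RefSeq gives on GRCm38.p6. The motifs were the MYC E-box CACGTG, which reads the same on both strands, and the RUNX core TGTGGT, searched on both strands, which do not overlap each other. The table held 12 start sites for 6 of the factors, Bcl11b, Gata3, Zbtb7b, Satb1, Ikzf1 and Myb. The E-box was in 0 of these 12 windows, against 6.02% of 32851 windows of all genes. The RUNX core was in 1 of 12, against 14.0% of all windows. That window belongs to the second start of Zbtb7b, and its 2 starts are shown to set the window with the motif, in capitals 89 bases before the start, beside the one without. The windows of Bcl11b and Myb are shown as those of 2 further factors whose RUNX2/MYC arrays lay wholly below WT. A match is a run of letters and not a site shown to be bound, and a window without one says nothing about binding elsewhere, such as in the distal silencer of Zbtb7b.
Zbtb7b, start 1, chr3:89393379-89393628, minus strand: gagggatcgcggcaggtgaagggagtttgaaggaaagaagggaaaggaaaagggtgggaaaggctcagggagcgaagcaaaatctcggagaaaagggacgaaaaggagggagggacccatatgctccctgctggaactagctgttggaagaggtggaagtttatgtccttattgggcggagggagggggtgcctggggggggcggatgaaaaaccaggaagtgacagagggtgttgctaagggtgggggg
Zbtb7b, start 2, chr3:89387672-89387921, minus strand: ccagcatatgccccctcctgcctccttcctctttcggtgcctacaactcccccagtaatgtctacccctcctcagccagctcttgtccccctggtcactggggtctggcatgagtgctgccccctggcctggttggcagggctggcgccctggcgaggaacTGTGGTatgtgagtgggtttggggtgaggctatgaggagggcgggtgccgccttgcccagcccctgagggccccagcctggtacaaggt
Bcl11b, chr12:108003415-108003664, minus strand: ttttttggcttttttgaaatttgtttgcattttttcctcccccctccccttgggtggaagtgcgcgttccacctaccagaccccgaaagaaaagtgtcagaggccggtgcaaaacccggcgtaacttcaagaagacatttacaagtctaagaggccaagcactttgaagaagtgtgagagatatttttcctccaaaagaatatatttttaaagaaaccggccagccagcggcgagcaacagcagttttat
Myb, chr10:21160985-21161234, minus strand: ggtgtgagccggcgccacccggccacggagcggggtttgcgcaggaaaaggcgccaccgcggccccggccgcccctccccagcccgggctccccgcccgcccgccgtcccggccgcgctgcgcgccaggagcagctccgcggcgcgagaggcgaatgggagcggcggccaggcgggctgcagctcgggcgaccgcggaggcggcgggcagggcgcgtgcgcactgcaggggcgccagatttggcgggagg
The GC content of these 4 windows was 56.4%, 64.8%, 44.8% and 81.2%.

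The spread of each factor over the settings is shown last. Satb1, Zbtb7b, Bcl11b, Gata3, Myb and Ets1 kept a negative log2 fold change in all 18 alternatives run, although not all of these could alter the value. A call was reached by Tox in 6 of them and by Satb1, Zbtb7b and Bcl11b under array weights alone, a setting in which 34.1% of all probe sets were called lower.

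**Figure D5:**
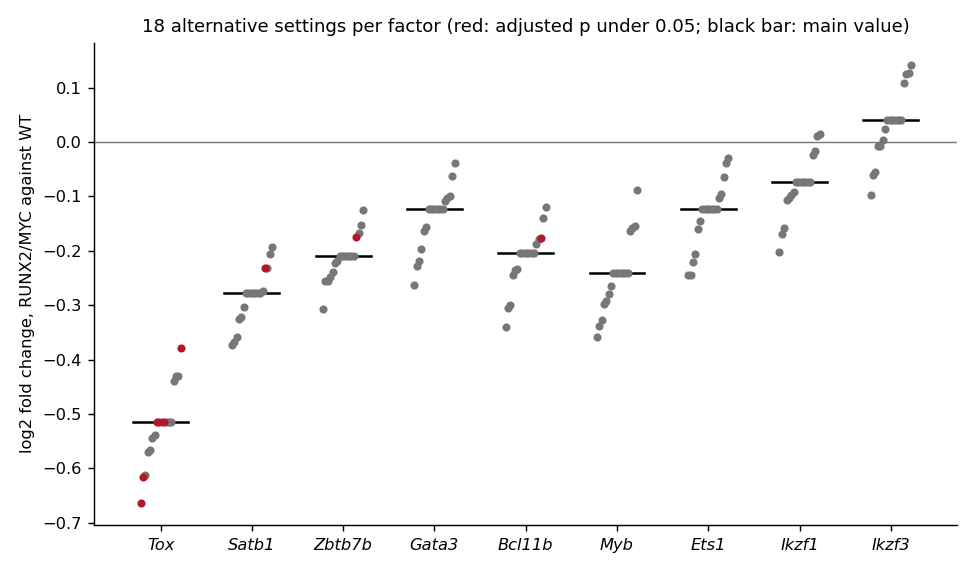
Difference in log2 signal between RUNX2/MYC and WT for each factor in the main setting (black bar) and in 18 alternatives (points, ordered by value; red where the adjusted p was under 0.05). Tox has 6 red points and stays between -0.66 and -0.38, while the points of Ikzf1 and Ikzf3 lie on both sides of 0. Settings that alter only the test or the probe sets fitted repeat the main value.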

How the data were processed

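Whole thymus RNA of 6 mice was hybridised to Affymetrix MoGene 1.0 arrays, 3 per group. The authors deposited log2 signals per probe set, made per the labels by RMA (background correction, normalization between arrays, probe set summary) in Affymetrix Expression Console 1.4, whereas the published methods describe RMA with adjustment for GC content in Partek software. RMA compresses small differences, and the signals (3.75 to 14.56, array medians 7.31 to 7.49) were used as deposited. The annotation pairs 21789 probe sets with 1 symbol, 1621 with several and 12146 with none, and each gene was read from the brightest probe set with its symbol alone.

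The groups were compared with limma 3.58.1 (R 4.3.3, lmFit and eBayes) without a block, adjusted over all probe sets, after a check of the code on artificial data. The 9 factors, their paralogs and the other lists were chosen with earlier results of these data known. Named genes are the 9 factors, the paralogs, and from each list the genes past the threshold and up to 3 with the largest values. Only 6 arrays limit the precision. The limma p-values set a group difference against the spread between these arrays, moderated over all probe sets. Alternatives were other scalings, filters, the methods' ANOVA, array weights, a mean-variance trend, a replicate block and leaving out each array. For single factors the mean of all probe sets of a symbol was a further one. The replicate numbers were not taken as pairs in the main fit, and the titles do not say whether they pair. Deviations from group means correlated at 0.50, -0.15 and 0.61 for numbers 1 to 3, which does not settle it. With a replicate block limma called 1654 probe sets higher and 763 lower, Tox among the latter (adjusted p = 0.0428). A few listed genes were not analysed here. Promoters are from RefSeq (GRCm38.p6).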

Additional observations from a re-analysis of the deposited data

How the results depend on the processing

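No factor was called higher in any of the 17 settings in which the calls were counted. The count of factors called lower was 1 (Tox) with quantile normalization again, cyclic loess, the filter on dim probe sets, probe sets of 1 symbol and the replicate block (adjusted p = 0.0428 for Tox), 4 with array weights, and 0 in the others, those that leave out an array included. Both filters change which probe sets are fitted and adjusted over. They, the methods' ANOVA, the mean-variance trend and the replicate block leave the fold changes of the 9 factors at their main values. So does the mean of all probe sets of a symbol, a further alternative for single factors, since each factor has 1 probe set. The array weights did not converge and ran from 0.30 to 6.21. The number without overlap and lower was 1 under median centring and 5 to 7 elsewhere. Over all probe sets the calls were, higher and lower, 543 and 98 with quantile normalization, 915 and 48 with median centring, 209 and 45 with 75th percentile centring, 457 and 124 with cyclic loess, 1247 and 145 with the dim filter, 1236 and 149 with 1 symbol, 1213 and 247 with the methods' q values, 162 and 33 with Benjamini-Hochberg in their place, 9165 and 12137 with array weights, 1054 and 104 with a mean-variance trend and 1654 and 763 with the replicate block. Leaving out 1 array gave 3 to 872 higher and 0 to 718 lower: 872 and 718 if RUNX2/MYC replicate 1 was dropped, 540 and 75 if WT replicate 3 was, and 3 or 4 higher and 0 lower without any other array. The median of the 9 factors was negative throughout (-0.30 to -0.12). Ikzf3 turned to -0.060 with quantile normalization, -0.055 with 75th percentile centring and -0.097 with cyclic loess, and ran from -0.0078 to 0.13 when 1 array was left out. Ikzf1 turned to 0.011 with median centring and 0.016 with array weights. The ratio of Gata3 to Zbtb7b ran from -0.011 to 0.15 when 1 array was left out and was 0.020 with quantile normalization and -0.0077 with cyclic loess, 2 scalings of the ratios chosen after seeing the data. The cause of these changes was not tested. With 3 arrays a group, the 95% intervals of the 9 factors were 0.45 to 0.62 wide on the log2 scale.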
